A study of Mus musculus with 4 samples.

Results

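Sh3glb1, Ergic3, Psap, Akap9 and Rpn2 are 5 genes of the endomembrane system whose predominant isoform differed between radial glia-like and mature neuron-like cells of the embryonic mouse brain. They were chosen by name, from the isoform shares measured in these same cells, out of 12561 genes with Nanopore isoform counts. The contrast of radial glia-like with mature neuron-like cells is therefore given for them as a description, with no test. The Nanopore counts hold 18 annotated isoforms of the 5 genes among 31986 isoforms in all. The cells were dissociated from the cortex, hippocampus and ventricular zone of an embryonic day 18 (E18) mouse of the C57BL/6 strain, for which the labels give neither a treatment nor a genetic change. They were captured with 10x Genomics Chromium 3′ chemistry, and 1 emulsion was divided into the aliquots labelled 190 and 951 cells. Each aliquot was sequenced by Illumina, which counts molecules per gene, and by Nanopore, which reads cDNA molecules along their length and counts them per isoform. The 4 libraries thus represent 1 cell suspension, and p-values measure the technical spread between 2 aliquots and not the spread between animals.

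The endomembrane system comprises the endoplasmic reticulum (ER), the ER-Golgi intermediate compartment, the Golgi apparatus, endosomes, lysosomes and the vesicles that move between them. Rpn2 encodes ribophorin II, a subunit of the oligosaccharyltransferase that attaches N-glycans to proteins entering the ER. Ergic3 encodes a membrane protein that cycles between the ER and the Golgi, Akap9 a large scaffold of the Golgi and the centrosome that anchors protein kinase A, Psap the precursor of the lysosomal saposins that activate sphingolipid breakdown, and Sh3glb1 endophilin B1, a membrane-bending protein with roles in autophagy and at mitochondria. Radial glia are the neural stem cells of the embryonic cortex. They give rise to neurons directly or through intermediate progenitors, and alternative splicing of many genes, often of very short exons, is known to change along this path.

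Within the genomic span that both isoforms of a pair share, the 2 isoforms that define each switch differed by short stretches of coding sequence. Parts of the transcripts beyond this span were not compared. The stretches are shown here because they tell the 2 isoforms apart. Sequences are those of Gencode vM21 transcripts on GRCm38, 5′ to 3′ on the strand of the gene. The isoform whose share of the UMIs (unique molecular identifiers, each marking 1 captured cDNA molecule) of a gene fell most from radial glia-like to mature neuron-like cells is called the glial isoform, and the one whose share rose most the neuronal isoform. Capitals mark the bases that are present in one isoform of the pair and absent from the other, and lower case marks the spliced coding bases on either side. The alternative bases are in the neuronal isoform for every gene but Akap9, where they are in the glial isoform.
Sh3glb1-202: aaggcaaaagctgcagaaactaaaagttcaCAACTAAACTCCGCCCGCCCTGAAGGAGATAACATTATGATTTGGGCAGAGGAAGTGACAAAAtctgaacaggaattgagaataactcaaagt
Ergic3-202, exon 8: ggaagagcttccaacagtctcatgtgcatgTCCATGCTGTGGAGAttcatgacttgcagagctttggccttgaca
Ergic3-202, exon 10: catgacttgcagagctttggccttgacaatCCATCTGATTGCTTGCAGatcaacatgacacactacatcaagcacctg
Psap-205: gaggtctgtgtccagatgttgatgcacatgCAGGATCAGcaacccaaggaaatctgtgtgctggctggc
Akap9-207: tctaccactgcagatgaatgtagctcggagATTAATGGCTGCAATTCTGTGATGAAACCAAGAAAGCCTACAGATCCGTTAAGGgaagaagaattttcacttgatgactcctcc
Rpn2-205: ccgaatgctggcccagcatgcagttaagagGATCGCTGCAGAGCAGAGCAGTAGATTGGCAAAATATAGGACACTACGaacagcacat

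In Sh3glb1, on the minus strand of chromosome 3, Sh3glb1-202 includes exons 6 (chr3:144701808-144701846, 39 nt) and 7 (chr3:144699854-144699877, 24 nt) of its 11, which are adjacent in the transcript and absent from the glial isoform Sh3glb1-201. Sh3glb1-202 is annotated with 5945 nt and Sh3glb1-201 with 3961 nt, a larger difference than these exons make. In Ergic3, on chromosome 2, Ergic3-202 includes exon 8 of its 14 (chr2:156015377-156015391, 15 nt) and another 18 nt of exon 10 (chr2:156016688-156016705), which Ergic3-201 lacks. The Psap isoforms differ by exon 8 of the 15 of Psap-205 on chromosome 10 (chr10:60297537-60297545), which is 9 nt long and absent from Psap-202. The Akap9 pair stands apart, because the alternative exon 4 (chr5:3954397-3954450, 54 nt) belongs to Akap9-207, an isoform annotated with 8 exons and 2010 nt, whereas the neuronal Akap9-201 skips it and is annotated with 48 exons and 13123 nt. Akap9-207 ends at chr5:3960989 and Akap9-201 at chr5:4081310, with annotated coding regions of 1745 and 11337 nt. The 54-nt exon is thus a small part of the annotated difference between them. The coding region annotated for Akap9-207 is not a whole number of codons, so this annotation may be incomplete. Whether the molecules counted as Akap9-207 end where it does was not examined. In Rpn2, on chromosome 2, exon 16 of the 17 of Rpn2-205 (chr2:157323223-157323270, 48 nt) is skipped in the glial Rpn2-202. Rpn2-205 is annotated with 1944 nt and Rpn2-202 with 2756 nt, so this pair also differs beyond the shared span. Rpn2-205 is annotated as a processed transcript without a coding region, and the same exon is coding in Rpn2-201, an isoform with no UMI in these counts.

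Each of the 7 alternative stretches was a multiple of 3 nt (13, 8, 5, 6, 3, 18 and 16 codons in the order given above) and none held an in-frame stop codon. In the annotation, the coding region was 1095 nt in the glial and 1158 nt in the neuronal isoform of Sh3glb1, 1149 and 1182 nt for Ergic3, and 1662 and 1671 nt for Psap. Among 4650 internal coding exons of 597 genes tested for isoform usage, the median length was 112 nt, 1.44% were 27 nt or shorter, and 40% had a length that is a multiple of 3. Exons that met both marks of the member stretches, at most 54 nt and a multiple of 3, made up 4.37% of these exons. The limit of 54 nt equals the length of the longest member stretch, so all of them meet it by the choice of the limit. The exons counted were not restricted to alternative ones, so this share is a description and no test. The pair of isoforms held nearly all UMIs of each gene that were assigned to an annotated isoform. Molecules that matched no annotated isoform are not in these counts. The pairs held 177 UMIs of Sh3glb1-201 and 317 of Sh3glb1-202, 298 of Ergic3-201 and 1107 of Ergic3-202, and 238 of Psap-202 and 702 of Psap-205. Akap9 had 236 of Akap9-207 and 1925 of Akap9-201, and Rpn2 had 305 of Rpn2-202 and 153 of Rpn2-205. The other 8 isoforms with a UMI held between 1 and 47 UMIs each, the highest being Akap9-206.

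**Figure D1:**
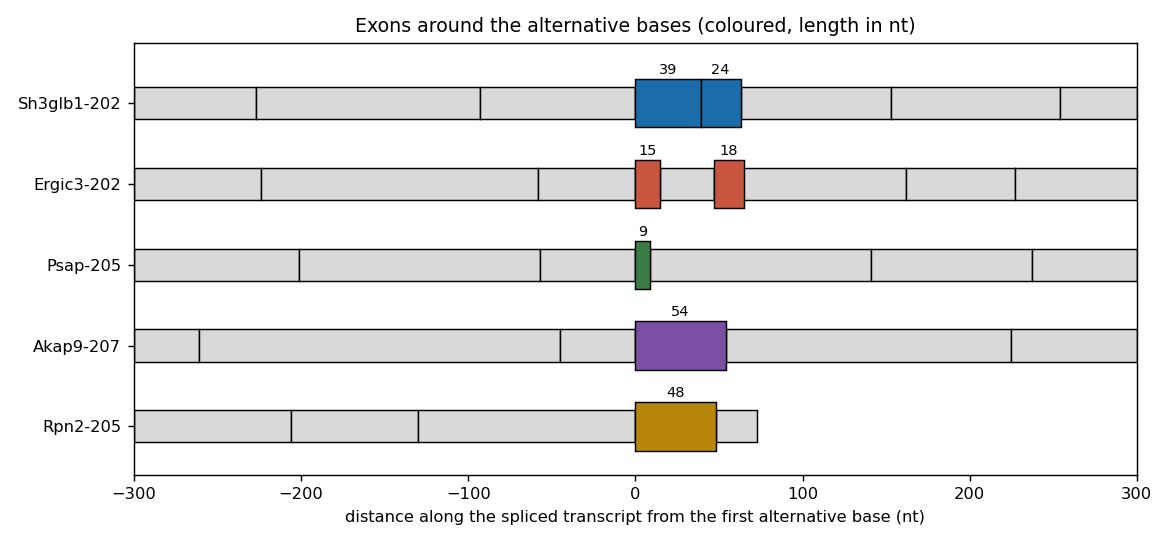
Exons of the isoform that holds the alternative bases, for the 5 genes, against the distance in nt along the spliced transcript from the first alternative base. Grey boxes are shared exons with their borders as lines, and coloured boxes are the alternative stretches of 9 to 54 nt, with their lengths above.

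After cells with fewer than 1400 genes detected by Illumina were left out, 186 and 935 cells of the 190 and the 951 cell aliquot remained, with medians of 4394 and 4487 Nanopore UMIs and of 8048.5 and 7551 Illumina UMIs per cell. The aliquots shared 12 barcodes among these cells, and 3 and 4 cells were called doublets and kept. Clustering on the Illumina counts gave 10 clusters in 8 classes named from marker genes. In the 190 and the 951 cell aliquot radial glia-like cells numbered 13 and 59, cycling cells 25 and 94, intermediate progenitor-like cells 16 and 68, glutamatergic-like neurons 37 and 196 (immature) and 43 and 236 (mature), GABAergic-like neurons 31 and 142 (immature) and 17 and 127 (mature), and Cajal-Retzius-like cells 4 and 13. All 12 markers of radial glia and all 8 of intermediate progenitors were highest in their own class, against 6 of 8 for the immature glutamatergic-like cells, of which 1 cluster of 83 cells had none of its class markers among its top 10 genes. The cycling cells, named mainly from cell cycle genes, could not be called radial glia. They had 716 CPM (UMIs of a gene scaled to the total of the class) of Fabp7, 119.7 of Slc1a3 and 9.04 of Sparc, against 8685, 608.3 and 541.8 CPM in radial glia-like cells, which themselves had 262.5 CPM of the cell cycle gene Top2a against 618.1 CPM in the cycling cells. The cycling cells also held Dlx2 (210.1 CPM) and Gad2 (148.3 CPM), from the list of 10 immature GABAergic markers. Intermediate progenitor-like cells had 13.6 and 16.3 CPM of them. Neurod6 (183 CPM) and Neurog2 (134 CPM) were present besides, so that the cycling cells carried markers of more than 1 lineage. By the mean log2 difference from all other cells over each marker list, the cycling list stood at 3.078 and the intermediate progenitor list came next at 0.3146. The radial glia list and the GABAergic lists as wholes were lower. The classes named immature and mature GABAergic-like differed in markers of type. Top genes of the first included Ebf1, Isl1, Zfhx3 and Foxp2, and those of the second Sst, Maf, Nxph1 and Npy. Stage and type can therefore not be told apart between these classes. Some classes also held RNA of other cells. The 4 oligodendrocyte precursor markers summed to 183.5 and 158 CPM in the cycling cells of the 190 and the 951 cell aliquot. In radial glia-like cells the 6 microglia markers summed to 538 CPM in the 951 and 0 in the 190 cell aliquot, and the 3 mural markers to 118 and 16.6 CPM. Cells with at least 5 UMIs of a microglial, endothelial, mural or oligodendrocyte precursor list numbered 9 among the radial glia-like cells, 8 among the cycling cells and 1 among the progenitors. Without these 18 cells every call on the 5 genes stayed on its side of the threshold. The 4 hemoglobin genes, expressed by red blood cells, summed to 537 to 782 CPM in all classes, which gives a measure of RNA from outside the cells, and its part in the isoform shares was not tested.

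Ergic3, the ER-Golgi cycling protein, had intermediate shares of its neuronal isoform in the cycling cells and the progenitors. Ergic3-202 made up 6.67% and 5.26% of Ergic3 UMIs in radial glia-like cells of the 190 and the 951 cell aliquot, 33.3% and 38.2% in cycling cells, and 57.1% and 72.7% in intermediate progenitor-like cells. It then reached 97.8% and 94.8% in immature glutamatergic-like cells and stood at 95.9% and 94.9% in mature glutamatergic-like cells. The values of the 2 aliquots did not overlap between any 2 of the first 4 of these classes, and the immature and mature glutamatergic-like cells overlapped. In the GABAergic classes the share was 80.9% and 75.8% in immature and 100% and 95.4% in mature cells. Pooled over aliquots the interval was 2.21% to 10.9% in radial glia-like cells (129 UMIs) and 68.7% to 83.3% in immature GABAergic-like cells (141 UMIs; exact binomial 95% intervals, counting error only).

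Sh3glb1, the endophilin B1 gene, followed a similar course with fewer molecules. Sh3glb1-202 was at 5.88% and 2.60% of Sh3glb1 UMIs in radial glia-like, 16% and 31.3% in cycling, and 25% and 65.4% in intermediate progenitor-like cells, where the first of these values rests on 4 UMIs. It was at 100% and 94.4% in immature and 100% and 99.0% in mature glutamatergic-like cells, so that the glial isoform was nearly gone from both. In GABAergic cells it was at 71.4% and 81.7% in immature and 90.9% and 100% in mature cells. All 14 Sh3glb1 UMIs of the Cajal-Retzius-like cells, early-born neurons of the cortical surface, were of the neuronal isoform.

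Psap, the saposin precursor gene, differed from Ergic3 and Sh3glb1 in the cycling cells. Psap-205, with the 9-nt exon, was at 21.1% and 22% of Psap UMIs in radial glia-like cells but already at 79.2% and 73.0% in cycling cells. In intermediate progenitor-like cells it was at 80% and 57.1%, which overlapped the cycling cells. It then stood at 100% and 88.4% in immature and 96.9% and 93.5% in mature glutamatergic-like cells, and at 71.4% and 86.3% in immature and 83.3% and 93.7% in mature GABAergic-like cells. Radial glia-like cells lay below all other classes in both aliquots, and the GABAergic classes overlapped each other.

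Akap9, the Golgi and centrosome scaffold gene, had the highest share of its neuronal isoform among the 5 genes in intermediate progenitor-like cells when aliquots were pooled. Akap9-201, the isoform without the 54-nt exon, was at 50% and 20.6% of Akap9 UMIs in radial glia-like cells, the first value resting on 8 UMIs, and at 80% and 55% in cycling cells. It was at 85% and 79.1% in intermediate progenitor-like, 91% and 92.2% in immature glutamatergic-like and 97.9% and 96.1% in mature glutamatergic-like cells. In GABAergic cells it was at 77.6% and 85.2% in immature and 95% and 87.6% in mature cells. Pooled over aliquots, the intervals of the mature classes did not overlap, with 83.4% to 92.1% in GABAergic-like and 94.7% to 97.7% in glutamatergic-like cells, a difference that was not tested. All 43 Akap9 UMIs of the Cajal-Retzius-like cells were Akap9-201. The spans of single molecules were not analysed here, so that the assignment of a molecule to the 13123-nt Akap9-201 could not be checked over all of its exons.

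Rpn2, the oligosaccharyltransferase subunit gene, differed from the other 4 in that its neuronal isoform was at 48% or below in both immature neuron classes. Rpn2-205 was not detected among 9 and 81 Rpn2 UMIs of radial glia-like cells (0 of 90, which allows a share of up to 3.33%) and was at 5.88% and 7.14% in cycling cells. Intermediate progenitor-like cells held 17 Rpn2 UMIs, 1 of them Rpn2-205. In immature glutamatergic-like cells the share was 30.8% and 18%, against 69.2% and 64.4% in mature glutamatergic-like cells, with no overlap between the aliquots of the 2 classes. In GABAergic cells it was 33.3% and 48% in immature and 75% and 85.3% in mature cells. Cajal-Retzius-like cells had 3 of 12 Rpn2 UMIs on the neuronal isoform, whereas they had 95% of Ergic3 (20 UMIs) and 95.5% of Psap UMIs (22 UMIs) on it.

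**Figure D2:**
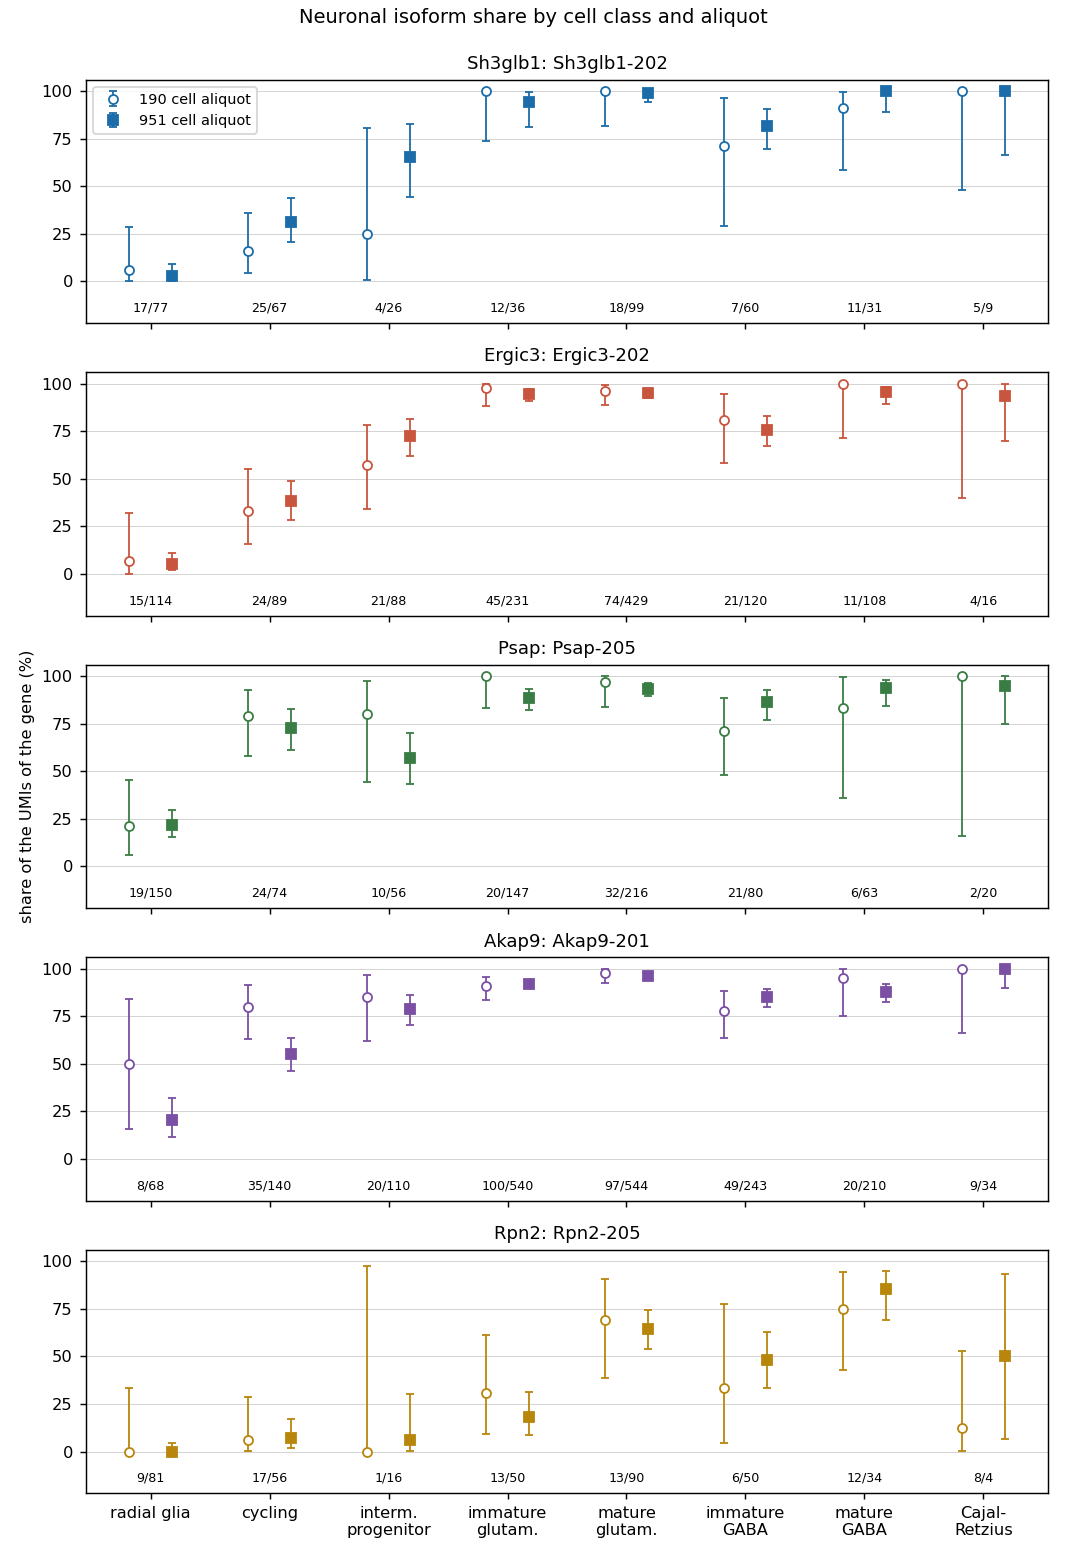
Share of the neuronal isoform among the UMIs of each gene (%), by cell class and aliquot. Open circles are the 190 and filled squares the 951 cell aliquot, bars are exact binomial 95% intervals, and the numbers under each class are the UMIs of the gene in the 190 / 951 cell aliquot. Rpn2-205 lies between 18% and 48% in the immature classes, where the other 4 neuronal isoforms lie at 71.4% or above.

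To set the genes on one scale, each pooled share was expressed as the part of the way from the radial glia-like share to the share of all mature neuron-like cells. Both ends of this scale are the values that chose the genes, so only the position of the classes between them is informative. Cycling cells lay 9.72% of the way for Rpn2, 25.1% for Sh3glb1, 35.4% for Ergic3, 51.5% for Akap9 and 73.3% for Psap. Intermediate progenitor-like cells lay between 53.9% (Psap) and 79.8% (Akap9) for 4 genes and at 8.35% for Rpn2. In immature glutamatergic-like cells those 4 genes had covered 94.6% to 100.1% of the way and Rpn2 29.3%, and in immature GABAergic-like cells they had covered 79.3% to 85.3% and Rpn2 65.9%. Rpn2 was thus the one gene of the 5 whose position was further along in immature GABAergic-like than in immature glutamatergic-like cells, a difference that did not pass the test given below.

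**Figure D3:**
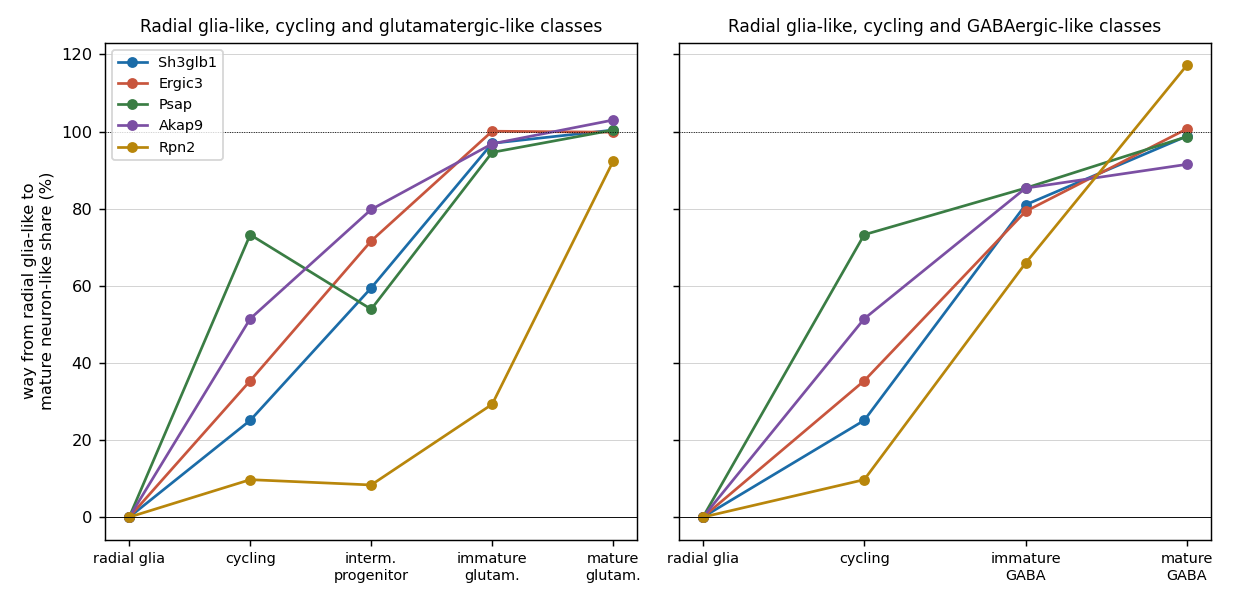
Position of each cell class on the way from the radial glia-like share (0%) to the pooled mature neuron-like share (100%) of the neuronal isoform, for the 5 genes with aliquots pooled. The left panel gives the glutamatergic and the right panel the GABAergic classes. Lines join classes for reading and give no lineage. In the left panel 4 genes reach 94.6% or more at the immature glutamatergic-like cells, where Rpn2 is at 29.3%.

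Isoform usage was tested between classes outside the contrast of radial glia-like with mature neuron-like cells. The test was the gene-level F test of edgeR diffSpliceDGE, with Benjamini-Hochberg adjustment over 640 genes. For each of the 5 genes it used the glial and the neuronal isoform alone, whereas the shares given count all isoforms of the gene. Counting the pair alone moved a pooled share by at most 5.12 points (Sh3glb1-202 in immature GABAergic-like cells, from 80.6% to 85.7%). The genes were chosen with earlier results of these data known, so it cannot be shown that the choice was blind to these classes. The comparisons share classes, since intermediate progenitor-like cells enter the first and second and immature glutamatergic-like cells the second and the last. The genes were chosen for a large difference between the end classes, so a difference at some step between these ends was likely beforehand. The share of all genes tested that passed is therefore not a matched background for the 5 genes. Between cycling and intermediate progenitor-like cells, 1 of the 5 genes passed, where 0.625% of all genes tested did (4 of 640, or 7 with aliquot as a block). The cycling cells held Dlx2 and Gad2 from the immature GABAergic list, although that list as a whole stood below the intermediate progenitor list. Lineage and stage can therefore not be told apart in this comparison. The share of Ergic3-202 rose by 23.8 percentage points in the 190 and by 34.5 in the 951 cell aliquot (adjusted p = 0.036). This call was lost in 7 of 16 alternative analyses, among them each one that left out 1 aliquot of either class (adjusted p between 0.084 and 0.81). The shares of Sh3glb1-202 and Akap9-201 were higher in intermediate progenitor-like cells by 9 and 34.0 and by 5 and 24.1 points without passing (adjusted p = 0.35 and 0.44). Those of Psap-205 and Rpn2-205 differed by 0.833 and -15.8 and by -5.88 and -0.893 points (adjusted p = 0.77 and 0.95), and the sign for Psap-205 differed between aliquots. The value of -5.88 points rests on 1 Rpn2 UMI in the progenitors of the 190 cell aliquot.

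Between intermediate progenitor-like and immature glutamatergic-like cells, 4 of the 5 genes passed, where 3.75% of all genes tested did (24 of 640). Ergic3-202 rose by 40.6 points in the 190 and 22.1 points in the 951 cell aliquot (adjusted p = 2.2e-05). Akap9-201 rose by 6 and 13.1 points (adjusted p = 0.0062), Psap-205 by 20 and 31.3 points (adjusted p = 0.011), and Sh3glb1-202 by 75 and 29.1 points (adjusted p = 0.017), all in the same direction in both aliquots. The share of Rpn2-205 was higher by 30.8 and 11.8 points and did not pass (adjusted p = 0.55), with 17 UMIs in the progenitors. Only 1 of these UMIs was in the 190 cell aliquot, so its difference of 30.8 points is not a measured size. Ergic3 passed in all 16 alternative analyses, Akap9 in 13 of 16, Psap in 11 of 15 and Sh3glb1 in 8 of 15. Without the intermediate progenitor-like cells of the 951 cell aliquot, the adjusted p was 0.72 for Akap9, 0.86 for Psap and 0.14 for Sh3glb1, and without the immature glutamatergic-like cells of that aliquot it was 0.33, 0.066 and 0.23. Sh3glb1 was also lost without those of the 190 cell aliquot (0.098), without the intermediate progenitor-like cells of the 190 cell aliquot (0.097) and without the cluster of 83 cells that lacked its markers (0.097).

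Between the immature neurons of the 2 lineages, 2 of the 5 genes passed, where 0.938% of all genes tested did (6 of 640, or 19 with aliquot as a block). The classes were named from markers of type, and whether they are at a like stage was not tested (Stmn2, a gene of neurons, was at 2065 CPM in the GABAergic and 1494 CPM in the glutamatergic class, and Mapt at 585.3 and 695.1 CPM). The share of Ergic3-202 was lower in immature GABAergic-like than in immature glutamatergic-like cells, with differences of -16.8 points in the 190 and -19.0 points in the 951 cell aliquot (pooled -18.7 points, adjusted p = 0.0011). That of Akap9-201 was lower as well, with -13.5 and -7.04 points (pooled -8.13 points, adjusted p = 0.023). The Ergic3 call was lost without the immature GABAergic-like (adjusted p = 0.85) or the immature glutamatergic-like cells (0.26) of the 951 cell aliquot. The Akap9 call was lost when any of the 4 class sums was left out (0.085 to 0.78) and without the cluster of 83 cells (0.16). The differences were -28.6 and -12.8 points for Sh3glb1-202 (adjusted p = 0.61), -28.6 and -2.19 points for Psap-205 (adjusted p = 0.84) and 2.56 and 30 points for Rpn2-205 (adjusted p = 0.40), none of which passed.

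**Figure D4:**
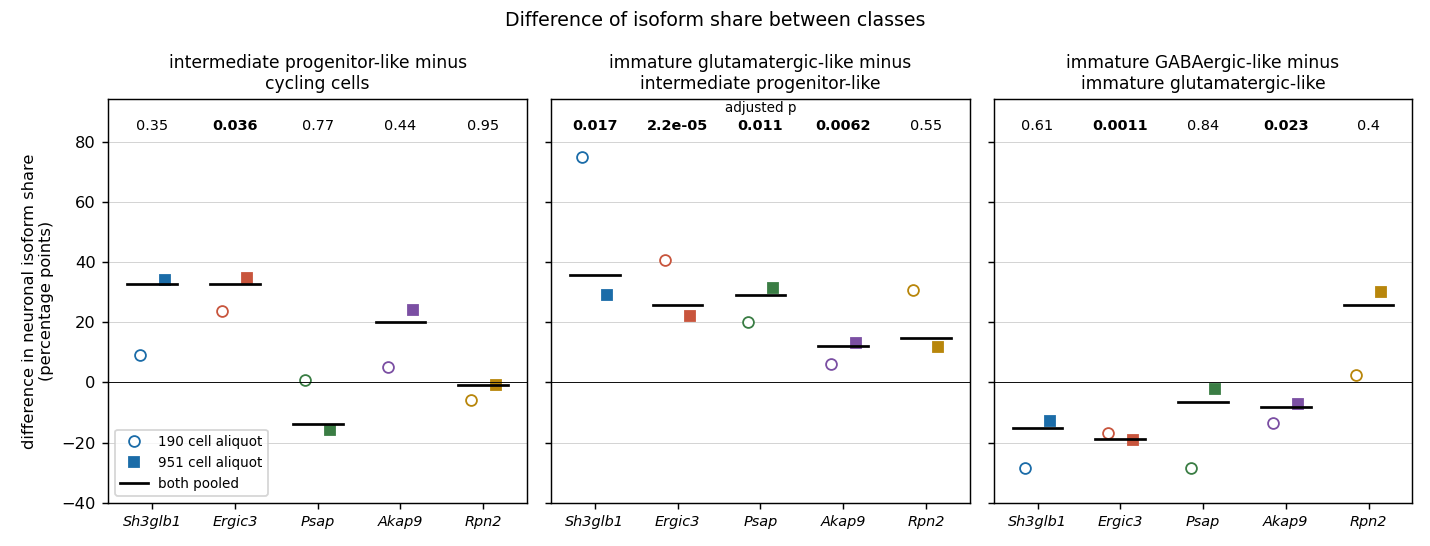
Difference in the share of the neuronal isoform (percentage points) between 2 cell classes, for 3 comparisons and the 5 genes. Open circles are the 190 and filled squares the 951 cell aliquot, black lines both aliquots pooled, and numbers along the top adjusted p-values of the edgeR gene-level test, bold where under 0.05. In the middle panel all points are above 0 and 4 genes pass.

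In single cells, the molecules of a class share were spread in different ways. Only cells with at least 2 UMIs of the isoform pair can show both isoforms, and many cells had fewer. Of 29 such intermediate progenitor-like cells for Ergic3, 8 had the glial isoform alone, 18 the neuronal isoform alone and 3 both. Of 25 cycling cells for Ergic3, 14, 6 and 5 were of these kinds, and for Sh3glb1 17, 4 and 4 of 25. In immature GABAergic-like cells 14 of 30 for Ergic3 had both. For Psap, 22 of 38 radial glia-like cells had both, as did 8 of 25 cycling and 5 of 16 intermediate progenitor-like cells. For Akap9, 25 of 42 cycling and 8 of 33 intermediate progenitor-like cells had both. For Rpn2, all 20 radial glia-like cells with at least 2 UMIs had the glial isoform alone, while 7 of 15 mature glutamatergic-like cells had the neuronal isoform alone, 3 the glial isoform alone and 5 both. These counts were not compared between classes or genes, since cells with more UMIs are more likely to show both isoforms.

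The amounts of the 5 genes differed in their order of classes. Levels are Illumina CPM of class sums and are given as a description, since the cells were clustered on these counts. Akap9 was lowest in radial glia-like cells (83.2 and 125.2 CPM in the 190 and the 951 cell aliquot) and highest in immature glutamatergic-like cells (433.1 and 498.3 CPM), a ratio of 4.47 between the mean levels. Its mean level was 104.2, 175.1, 224.4 and 465.7 CPM in radial glia-like, cycling, intermediate progenitor-like and immature glutamatergic-like cells, the same order as the share of its neuronal isoform, and 260.8 CPM in mature glutamatergic-like cells, where that share was higher still. Its next levels were those of the immature (467.9 and 390.3 CPM) and mature GABAergic-like cells (394 and 446.2 CPM), which overlapped each other and the top class, while the 5 classes below them were each separated from the next.

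Psap was highest in Cajal-Retzius-like (331.1 and 358.9 CPM) and radial glia-like cells (266.3 and 339.5 CPM), which overlapped. Without the cells that carried markers of other cell types, among them microglia in the 951 cell aliquot, radial glia-like cells had 266.3 and 324 CPM and no longer overlapped the Cajal-Retzius-like cells. Psap was lowest in cycling cells (124.4 and 143.1 CPM), which overlapped the immature glutamatergic-like cells. Sh3glb1 was highest in Cajal-Retzius-like cells (260.1 and 223.3 CPM), and the 5 next classes, from radial glia-like (144.2 and 170.3 CPM) to intermediate progenitor-like cells (127.6 and 109.2 CPM), overlapped their neighbours. It was lowest in the immature (92.36 and 74.19 CPM) and mature glutamatergic-like cells (82.95 and 80.19 CPM).

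Ergic3 varied least among the 5 genes, from 99.51 and 103.3 CPM in cycling cells to 154.8 and 183.7 CPM in mature glutamatergic-like cells, a ratio of 1.67. Rpn2 ranged from 21.27 and 41.99 CPM in intermediate progenitor-like cells to 212.8 and 87.74 CPM in Cajal-Retzius-like cells, whose aliquots hold 4 and 13 cells. Radial glia-like cells had 110.9 and 119.6 CPM of Rpn2, mature glutamatergic-like cells 57.14 and 48.78 CPM.

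**Figure D5:**
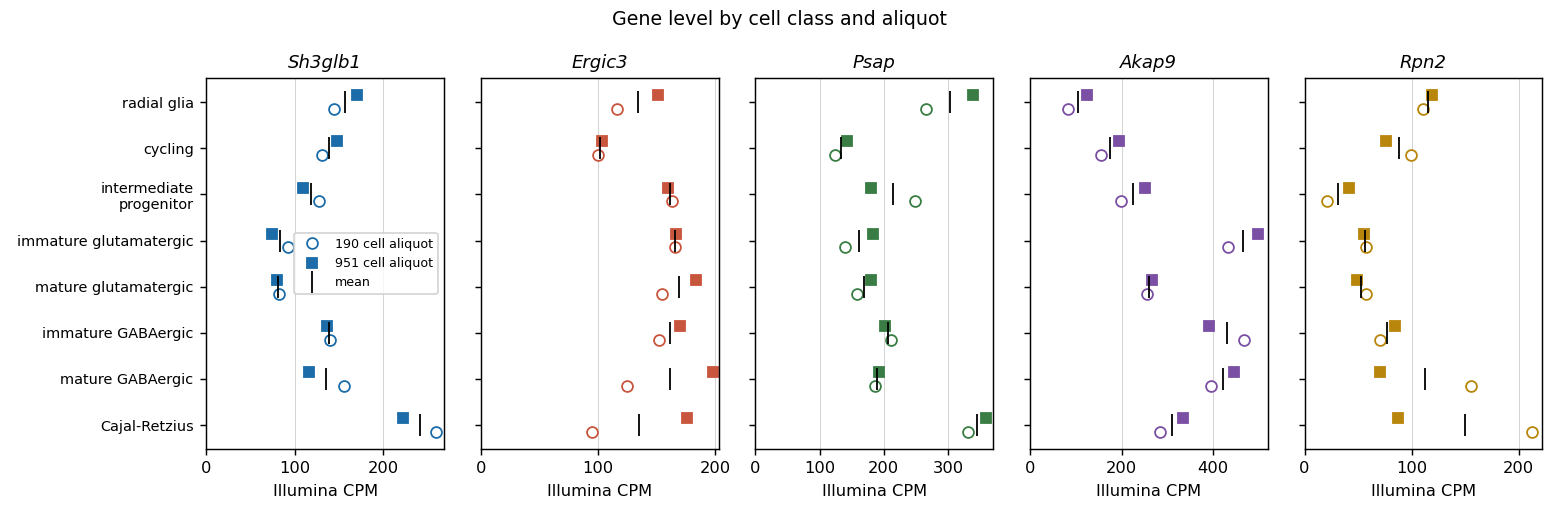
Illumina level (CPM of class sums) of the 5 genes by cell class. Open circles are the 190 and filled squares the 951 cell aliquot and vertical lines their mean, and each panel has its own axis from 0. Among the 8 classes, Akap9 is lowest in radial glia-like cells, where the mean levels of Sh3glb1, Psap and Rpn2 are exceeded in Cajal-Retzius-like cells alone.

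The platforms were compared to learn how many of the molecules seen by Illumina were assigned to an isoform by Nanopore. Over all genes shared by the platforms, Nanopore gave 57.5% and 61.0% as many UMIs as Illumina in the 190 and the 951 cell aliquot. Ergic3 had 254 and 1369 Illumina and 215 and 1195 Nanopore UMIs (84.7% and 87.3%), and Akap9 497 and 2582 against 338 and 1889 (68.0% and 73.2%). Both were higher in Nanopore relative to other genes, by 0.72 (SE 0.13, adjusted p = 0.0069) and 0.44 (SE 0.12, adjusted p = 0.029) on the log2 scale, in edgeR's quasi-likelihood test, by which 20.2% of 9855 genes were higher in Nanopore. Without the Nanopore library of the 951 cell aliquot the adjusted p for Akap9 was 0.091. Sh3glb1 (47.1% and 44.6%, log2 difference -0.20, SE 0.12), Psap (41.7% and 48.9%, -0.18, SE 0.15) and Rpn2 (56.4% and 69.3%, 0.28, SE 0.13) did not pass (adjusted p = 0.21, 0.34 and 0.11), although Psap did without the Nanopore library of the 951 cell aliquot (log2 difference -0.41, adjusted p = 0.034). With the aliquot as a block, which pairs libraries made from the same droplets, all 5 genes passed, as did 6972 of all 9855 genes (4976 without the block). The log2 differences were -0.22 for Sh3glb1 (adjusted p = 0.0062), -0.15 for Psap (0.025) and 0.34 for Rpn2 (0.0011). With the block 3240 genes were higher and 3732 lower in Nanopore (1986 and 2990 without it). Between classes the Nanopore count ranged from 60.3% (radial glia-like) to 79.6% (Cajal-Retzius-like) of the Illumina count for Akap9 and from 33.8% (immature glutamatergic-like) to 53.1% (radial glia-like) for Sh3glb1. In the cycling, intermediate progenitor-like, immature glutamatergic-like and immature GABAergic-like cells that entered the tests, it was 71.14%, 73.45%, 71.51% and 72.64% for Akap9. For Sh3glb1 it was 48.17%, 36.14%, 33.8% and 48.91% in these classes. The share of molecules that were assigned thus varied between classes to a different extent for different genes, and its part in the isoform shares was not tested.

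Of 114 other genes of the same compartments, 9 had enough isoform counts to be tested. The list was made with earlier results of these data known, so the share of all genes tested is no matched background for it. They were 2 of ER to Golgi transport (Copa and Copg1, coat proteins of vesicles), 3 of the oligosaccharyltransferase and translocon (Krtcap2, Ost4 and Ssr2), 3 of the Golgi scaffolds and A-kinase anchoring (Golga4, Golgb1 and Prkar1a) and 1 of the endophilins and autophagy (Sh3glb2), with 0 of the lysosomal group. None of the 9 passed in the 3 comparisons in which the 5 genes were tested by edgeR, with 1, 0 and 0 at an unadjusted p under 0.05, and limma called none either (1, 2 and 0). Against radial glia-like cells, 3 of the 9 passed in the mature glutamatergic-like cells, where 16.7% of all genes tested did (107 of 640), and 3 in the mature GABAergic-like cells, where 13.3% did (85 of 640). Limma called 3 and 2 of the 9 in these comparisons.

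Sh3glb2, which encodes endophilin B2, the closest relative of endophilin B1, passed in both. Sh3glb2-201 made up 87.5% and 71.8% of Sh3glb2 UMIs in radial glia-like cells of the 190 and the 951 cell aliquot. It was not detected among 108 UMIs of mature glutamatergic-like cells, which allows up to 2.78%, or among 24 UMIs of mature GABAergic-like cells, which allows up to 12.5% (adjusted p = 5.5e-09 and 1.3e-06). Golgb1, which encodes the Golgi tether giantin, had 0% and 3.92% of its UMIs on Golgb1-204 in radial glia-like cells, 47.6% and 42.6% in mature glutamatergic-like and 40% and 50% in mature GABAergic-like cells (adjusted p = 1.2e-05 and 0.00016). Prkar1a, a regulatory subunit of protein kinase A, had 100% and 92.9% of its UMIs on Prkar1a-201 in radial glia-like and 76.2% and 71.4% in mature glutamatergic-like cells (adjusted p = 0.0013). Prkar1a did not pass in mature GABAergic-like cells. There the pooled share of Prkar1a-203 was 7.576%, against 6.195% in radial glia-like and 27.82% in mature glutamatergic-like cells. Ssr2, a subunit of the translocon-associated protein complex, had 87.1% and 84.8% of its UMIs on Ssr2-207 in radial glia-like and 100% and 96% in mature GABAergic-like cells (adjusted p = 0.045). With aliquots pooled, its share was 85.19% in radial glia-like and 87.14% in mature glutamatergic-like cells, where Ssr2 did not pass.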

How the data were processed

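The deposited tables hold UMI counts without normalization. For Illumina the authors counted UMIs per gene with Cell Ranger 2.0 (mm10). For Nanopore they counted UMIs per isoform of Gencode vM18, in which a consensus molecule was counted when its exon structure matched 1 isoform, after mapping with minimap2 and guided by the Illumina barcodes and UMIs. Molecules that matched none are not in these counts, which could shift shares between isoforms of unequal length. Cells with at least 1400 of 27998 genes were kept and clustered with Seurat 5.3.0 (2000 variable genes, 11 dimensions, resolution 0.8). A cluster was named from marker lists when at least 3 markers were raised. The cycling class was fixed under the name cycling radial glia and is called cycling cells here.

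Isoform counts were summed per class and aliquot. Classes with 5 or more cells in both aliquots (7 of 8) entered 1 edgeR 4.0.16 fit (R 4.3.3, TMM, filterByExpr, robust), with diffSpliceDGE per comparison and an adjusted p under 0.05 as the call. Platforms were compared over 4 library sums with edgeR's quasi-likelihood test. These fits had no aliquot term. The aliquot number pairs samples, since the platforms read the same droplets and classes of 1 number share a library: fits with aliquot as a block stand beside the results they change. Deviations of such classes from the class means had correlations of 0.0278 to 0.156 (median 0.0796, 21 pairs of classes). Shares have exact binomial 95% intervals (scipy 1.17.1), and a count of 0 was limited at 3 counts of the total. The scripts were tested on simulated data.

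The glial and neuronal isoforms are those whose shares fell and rose most from radial glia-like to pooled mature neuron-like cells. The genes most like the members were the 5 of highest Pearson r over classes among genes with at least 20 UMIs per class and a span of at least 20 points. The members, marker lists and the list of other endomembrane genes were chosen with earlier results of these data known. Doublets were called with Scrublet in scanpy 1.11.5. Annotation and sequences are from Gencode vM21, since the counts hold no coordinates. Figures were drawn with matplotlib 3.10.9.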

Additional observations from a re-analysis of the deposited data

Results flagged for a closer look

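Isoform shares of 2 genes differed between the classes named immature GABAergic-like and immature glutamatergic-like by the test of the difference itself. Whether these classes are at a like stage was not tested. The share of Ergic3-202 was lower in immature GABAergic-like than in immature glutamatergic-like cells (pooled difference -18.69 percentage points, 108 of 141 against 263 of 276 UMIs). The share of Akap9-201 was lower as well (pooled difference -8.127 percentage points, 245 of 292 against 589 of 640 UMIs). Both differences had the same sign in both aliquots, and both calls were lost without the filter on low counts (adjusted p = 0.19 and 0.32).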

How the results depend on the processing

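Counts of genes called for isoform usage depended on the filter, the test and single class sums. Without a filter, 7691 genes were tested and 0, 7 and 1 were called in the 3 comparisons in which the 5 genes were tested, in place of 4, 24 and 6, and 194 in place of 107 for mature glutamatergic-like against radial glia-like cells. With the Simes test the counts were 1, 14 and 1, and 68 and 49 in the mature glutamatergic-like and mature GABAergic-like comparisons (107 and 85 by the F test). With the aliquot as a block, 7, 32 and 19 genes were called, and no usage call on the 5 genes changed. The first comparison gave 0 calls without barcodes shared by the aliquots (47 genes had an unadjusted p under 0.05 in the reported fit, and limma called 6), and the last gave 2 without the immature glutamatergic-like cluster that lacked its markers. Only the 2 classes compared gave 50 calls of 260 genes for the mature GABAergic-like cells. Leaving out 1 class sum at a time, with its lone partner assumed to vary like the other classes, gave 0 to 1, 3 to 19 and 0 to 2 calls in the 3 comparisons, 42 to 118 in the mature glutamatergic-like comparison (42 without radial glia-like cells of the 951 cell aliquot) and 31 to 98 in the mature GABAergic-like one (31 without its own 951 cell aliquot and 43 without that of radial glia-like cells). The low counts in the first comparison came without either aliquot of either class. No count could be had without a whole aliquot.

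Among the 5 genes, the Ergic3 call in the first comparison was also lost without a filter (adjusted p = 1), with the Simes test (0.78) and without shared barcodes (0.08). In the second, no filter or the Simes test lost Sh3glb1 (0.23 and 0.073) and Psap (0.091 and 0.072), and no filter lost Akap9 (0.16). In the last, no filter lost Ergic3 (0.19) and Akap9 (0.32), and Akap9 was lost with the Simes test (0.11) and at resolution 1.2 (0.083). The cause was not tested. Without the intermediate progenitor-like cells of the 951 cell aliquot the difference from cycling cells reversed for Sh3glb1-202 (-2.174 points, up to 44 without other class sums) and for Psap-205 (5.51 points, down to -18.56), and neither passed. The Psap platform difference (-0.18 on the log2 scale, adjusted p = 0.34) was 0.01 without the Nanopore library of the 190 cell aliquot (0.98) and -0.41 without that of the 951 cell aliquot (0.034, past the threshold). The mean neuronal share over the 5 genes and the cycling, progenitor and immature classes was 62.31%, and 60.79% without the 951 and 62.5% without the 190 cell aliquot. DESeq2 called 3071 genes between platforms in place of 4976. Depth limits the smallest shares, such as those from 17 Rpn2 and 30 Sh3glb1 UMIs in intermediate progenitor-like cells.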

Other observations

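Across the 7 classes of the fit, the pooled shares of the neuronal isoforms had Pearson correlations between 0.646 (Akap9 with Rpn2) and 0.991 (Sh3glb1 with Ergic3). The points share libraries, and the end classes were used to choose the genes, so these values are descriptive. Among 497 other genes with enough UMIs, of which 152 had an isoform whose share spanned at least 20 percentage points, the 5 whose share was most like the mean of the members were Rtn4, Clta, Faim, Smarcb1 and Chchd3. Rtn4-205 (r = 0.981), an isoform of the gene for the ER-shaping protein reticulon 4, rose from 47.5% in radial glia-like to 86.4% in immature and 91.9% in mature glutamatergic-like cells. Clta-204 (r = 0.977), of the clathrin light chain A gene, was at 5.11%, 71.9% and 78.2% in the same classes, and at 51.5% in immature GABAergic-like cells. Faim-202 (r = 0.976), of a gene for an inhibitor of Fas-mediated apoptosis, was at 16.3%, 98.1% and 100%. Smarcb1-201 (r = 0.970), of a subunit of the SWI/SNF chromatin remodelling complex, was at 60.6%, 84.7% and 83.1%, and Chchd3-205 (r = 0.966), of a subunit of the mitochondrial MICOS complex, at 4.85%, 99.2% and 98.9%.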
